A study of Homo sapiens with 4 samples.

Results

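Genes for protein folding in the endoplasmic reticulum (ER) and for the unfolded protein response were followed in D458, an established human medulloblastoma cell line, after a short hairpin RNA against SETD8. The genes were taken by symbol from a list of 44 ER chaperones, folding enzymes, degradation factors, translocation and export factors and stress sensors. Of these, 43 had a row in the count table and at least 10 counts in at least 2 of the 4 libraries, out of 16839 gene rows in all. ERO1L was not analysed here. The lowest count of any member in any library was 23, so no member entered through 1 group alone. All 43 members were among the 14546 genes tested.

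The shSETD8 group held 2 libraries of D458 cells with a lentiviral hairpin directed at SETD8, and the shNull group held 2 libraries of D458 cells with a non-targeting hairpin. SETD8, also called KMT5A, is the enzyme that adds a single methyl group to lysine 20 of histone H4. Cells of both groups had been transduced in polybrene and then kept under puromycin (1 µg/mL) during 14 days of selection. The labels speak of separate clones, so the spread between libraries holds that between clones. Several hairpins against the gene are named, without saying which clone had which. The comparison asks which transcripts differ when SETD8 is lowered, and nothing in the labels names an ER stress treatment.

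The ER lumen folds secreted and membrane proteins with the Hsp70 chaperone BiP, the Hsp90 chaperone GRP94, the lectins calnexin and calreticulin and the disulfide isomerases. When unfolded proteins build up, the membrane sensors IRE1, PERK and ATF6 raise the transcription of these genes, slow translation and send misfolded proteins to the proteasome. Much of the transcriptional part runs through XBP1 and ATF6, which bind ER stress response elements in promoters. MYC, which is amplified in D458, drives the production of protein and with it the load on the ER.

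The elements through which the pathway acts are visible in the promoters of the genes measured here. RefSeq promoter sequences (GRCh38.p14, 300 bases around each start) were matched for 37 of the 43 members, all but PDIA3, SELM, FKBP14, DERL1, DERL3 and SEC24D. The ER stress response element ERSE, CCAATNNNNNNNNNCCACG, was found on either strand in 7 of the 37 members (18.9%), against 0.0916% of 27305 genes. They were CALR, CANX, CRELD2, HSP90B1, HSPA5, PDIA6 and XBP1. The related ERSE-II, ATTGGNCCACG, was found in HERPUD1, HYOU1 and SDF2L1, or 8.11% of the members against 0.0696% of genes. The XBP1-type core TGACGTGG was found in DNAJC10, HYOU1 and TXNDC5 (0.927% of genes), and in HYOU1 it overlapped an ERSE-II. The composite site TGATGCAA, of the kind bound by ATF4, was found in HERPUD1 and PPP1R15B (1.08% of genes). A match describes letters in the window and not a bound factor. The members were listed as genes of this pathway, so a share above that of all genes comes with the choice of list. The windows below run 5′ to 3′ on the strand that carries the motif and show which members hold an ERSE or ERSE-II, with the fixed letters in capitals. The spacing between the capitals was set by the motif searched.
HSPA5 ERSE, chr9:125241381-125241419, minus strand: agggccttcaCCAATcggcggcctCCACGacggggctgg
HSP90B1 ERSE, chr12:103930206-103930244, plus strand: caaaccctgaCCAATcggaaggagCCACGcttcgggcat
HSP90B1 ERSE, chr12:103930311-103930349, minus strand: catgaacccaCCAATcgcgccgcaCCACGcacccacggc
CALR ERSE, chr19:12938374-12938412, minus strand: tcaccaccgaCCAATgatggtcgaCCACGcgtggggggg
CANX ERSE, chr5:179698768-179698806, plus strand: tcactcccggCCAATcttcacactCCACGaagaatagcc
PDIA6 ERSE, chr2:10812843-10812881, minus strand: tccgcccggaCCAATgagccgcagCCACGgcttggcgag
CRELD2 ERSE, chr22:49918544-49918582, minus strand: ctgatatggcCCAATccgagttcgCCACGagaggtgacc
XBP1 ERSE, chr22:28800593-28800631, minus strand: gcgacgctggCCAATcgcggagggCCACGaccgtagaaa
HERPUD1 ERSE-II, chr16:56932015-56932045, plus strand: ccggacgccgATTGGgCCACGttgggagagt
HYOU1 ERSE-II, chr11:119057264-119057294, plus strand: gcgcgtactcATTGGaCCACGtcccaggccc
HYOU1 ERSE-II, chr11:119057370-119057400, plus strand: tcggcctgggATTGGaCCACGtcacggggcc
SDF2L1 ERSE-II, chr22:21642104-21642134, minus strand: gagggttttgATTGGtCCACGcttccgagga

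**Figure D1:**
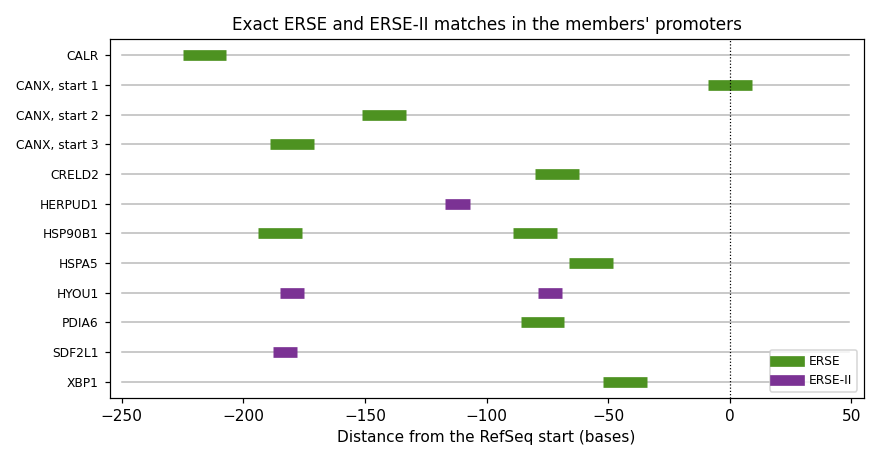
Places of exact ERSE (green) and ERSE-II (purple) matches along the promoters of the 10 members that hold one, as distance in bases from the RefSeq start, with CANX drawn once for each of its listed starts. Matches lie upstream of the start except at 1 of the CANX starts, where the match spans it, and HSP90B1 and HYOU1 hold 2 each.

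The whole promoters of HSPA5, SDF2L1 and MANF are given as examples of each kind. HSPA5 holds an exact ERSE, SDF2L1 an exact ERSE-II, and MANF no exact match to either. Only exact matches were searched, so a site that differs in any fixed letter stays in lower case and is not counted. Each runs 5′ to 3′ on the gene's strand (chr9:125241294-125241593 minus, chr22:21642052-21642351 plus and chr3:51385041-51385340 plus). Capitals mark the fixed letters of ERSE or ERSE-II, and in MANF the CCACG box alone, which 42.1% of genes hold in such a window on either strand.
HSPA5: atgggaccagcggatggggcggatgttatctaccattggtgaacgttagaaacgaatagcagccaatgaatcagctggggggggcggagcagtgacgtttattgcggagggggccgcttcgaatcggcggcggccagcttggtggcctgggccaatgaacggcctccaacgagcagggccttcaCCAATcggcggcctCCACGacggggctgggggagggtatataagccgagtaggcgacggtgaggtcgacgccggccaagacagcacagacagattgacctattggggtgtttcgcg
SDF2L1: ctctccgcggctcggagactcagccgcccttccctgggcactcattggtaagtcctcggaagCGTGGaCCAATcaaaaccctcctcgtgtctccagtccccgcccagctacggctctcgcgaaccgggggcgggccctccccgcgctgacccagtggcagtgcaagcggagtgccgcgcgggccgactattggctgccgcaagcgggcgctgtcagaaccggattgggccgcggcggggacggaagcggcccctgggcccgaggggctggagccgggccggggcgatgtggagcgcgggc
MANF: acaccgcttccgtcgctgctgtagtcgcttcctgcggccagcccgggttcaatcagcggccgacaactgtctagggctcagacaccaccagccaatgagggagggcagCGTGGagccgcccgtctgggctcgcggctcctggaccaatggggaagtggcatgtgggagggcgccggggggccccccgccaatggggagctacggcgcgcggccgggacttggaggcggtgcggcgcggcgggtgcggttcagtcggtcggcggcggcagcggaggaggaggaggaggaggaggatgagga

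SETD8 itself was at 14.0 CPM (shSETD8 replicate 1) and 26.4 CPM (replicate 2), against 38.9 and 41.6 CPM in the shNull libraries. CPM is the read count after normalisation for the depth of the library. Relative to the shNull mean this was 34.7% and 65.5%, and the labels state a knockdown of 80%. Its log2 fold change was -0.998 ± 0.30 (SE), which edgeR did not call (adjusted p = 0.421) and DESeq2 did (adjusted p = 0.0459). Total counts were 52627366 and 49064974 in shSETD8 and 44527591 and 40908334 in shNull. The shSETD8 libraries differed more from each other than the shNull libraries did, with an SD of log2 differences over 11604 genes of 0.51 and 0.21. Of 10 markers of group 3 medulloblastoma, the subgroup in which MYC is often amplified, 8 were analysed. Their summed level, most of it from MYC and OTX2, was 6320 and 6460 CPM with shSETD8 against 6644 and 6282 CPM with shNull. Markers of glia summed to under 1 CPM in every library and those of leukocytes to between 5.03 and 5.67 CPM. Epithelial markers summed to 4.96 and 11.2 CPM with shSETD8 against 0.317 and 0.505 CPM with shNull. Most of that sum was KRT18 (132 and 308 counts with shSETD8, 7 and 13 with shNull) and KRT8 (67 and 220, 3 and 0). CLDN3 (47 and 13, 1 and 0) was also higher, and CDH1 had few counts (8 and 1, 1 and 0). EPCAM (4 and 0, 1 and 4) and CLDN4 (2 and 3, 1 and 4) were not higher. Fibroblast markers summed to 32.0 and 39.5 CPM with shSETD8 against 64.9 and 53.0 CPM with shNull. Single markers departed from these sums: COL1A1 had 200 and 235 counts with shSETD8 against 83 and 82 counts with shNull. Of the group 3 markers, NRL had 1168 and 8319 counts with shSETD8 against 2017 and 1535 counts with shNull. GABRA5 had 2784 and 2991 counts with shSETD8 against 1818 and 1988 counts with shNull. The part of these in the values below was not tested.

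Most members lay above both shNull libraries in shSETD8 replicate 1, and fewer did in replicate 2. In replicate 1, 30 of 43 members (69.8%) were above both shNull libraries, and 41.6% of all genes tested were. In replicate 2 the number was 20 (46.5%), with 40.9% of all genes. Both shSETD8 libraries were above both shNull libraries for 17 members (39.5%, against 22.9% of all genes tested) and below both for 2 members (4.65%, against 22.4%). With 2 libraries a group, an exact permutation test of 1 gene cannot go below a two-sided p of 0.333.

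The differences were small. The members' median log2 fold change (shSETD8 over shNull) was 0.10, from -0.34 to 0.57, and 30 of 43 were above 0 (69.8%, against 51.2% of all genes, whose median was 0.01). The sign of 20 members turned when 1 of the 4 libraries was left out, HSPA5 and the sensors among them (all but ATF6B and PPP1R15B). The median difference from the shNull mean was 0.23 in shSETD8 replicate 1 and 0.05 in replicate 2. edgeR's quasi-likelihood test called 0 members at an adjusted p under 0.05, and it called 0% of all genes. The members' adjusted p started at 0.424. An unadjusted p under 0.05 was reached by 3 members, all higher (5.65% of all genes were higher at that level and 5.16% lower). DESeq2 also called 0 members (lowest adjusted p 0.193) and limma-voom 0, while DESeq2 called 1.94% of all genes, 0.928% higher and 1.02% lower.

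**Figure D2:**
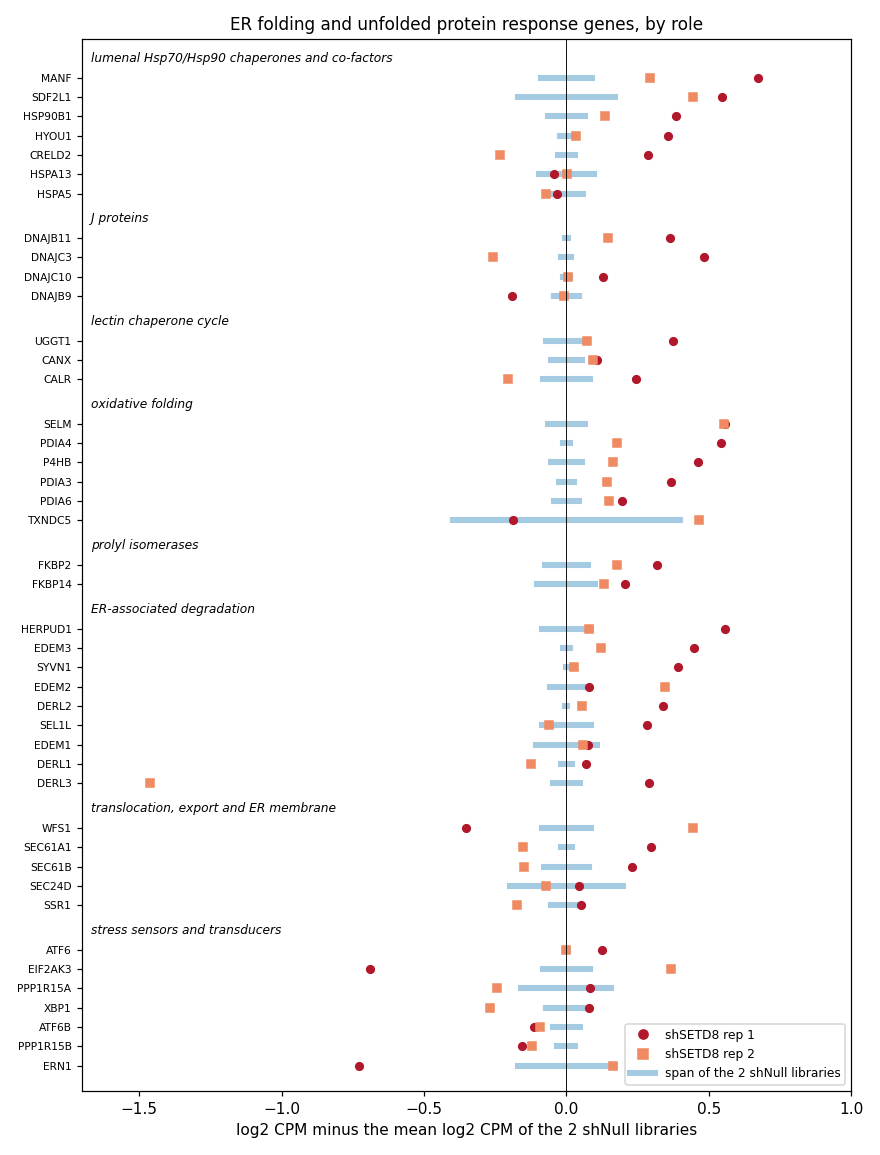
log2 CPM of each shSETD8 library minus the mean of the shNull libraries, for the 43 members grouped by role, with the span of the 2 shNull libraries as a blue bar. Red circles (replicate 1) lie right of the bar for 30 members, orange squares (replicate 2) for 20, and ERN1 and EIF2AK3 have the circle far to the left.

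Among the chaperones of the Hsp70 and Hsp90 machinery, 4 of 7 were above both shNull libraries in both shSETD8 libraries (57.1%, against 22.9% of all genes tested). MANF, a secreted ER stress protein that binds BiP, was at 82.9 and 63.7 CPM with shSETD8, against 55.3 and 48.9 CPM with shNull. Its log2 fold change was 0.49 ± 0.16 (SE), with an edgeR adjusted p of 0.424. The groups did not overlap, and replicate 1 stood clearly apart. SDF2L1, a partner of BiP and of the J protein DNAJB11, was at 15.5 and 14.5 CPM with shSETD8, against 9.45 and 12.0 CPM with shNull (0.49 ± 0.18, edgeR adjusted p = 0.457). Here the shSETD8 libraries were close to each other and the shNull libraries were the more spread pair.

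HSP90B1, which encodes GRP94, was at 1108 and 933 CPM with shSETD8, against 888 and 812 CPM with shNull (log2 fold change 0.26 ± 0.12, edgeR adjusted p = 0.492). Its gap in replicate 2 was less than the distance between the shNull libraries. HYOU1, the exchange factor that releases nucleotide from BiP, was at 232 and 185 CPM with shSETD8, against 178 and 184 CPM with shNull. The gap for HYOU1 in replicate 2 was less than the distance between the shNull libraries. HSPA5, which encodes BiP and is the usual marker of the response, was at 510 and 496 CPM with shSETD8, against 543 and 500 CPM with shNull. Its groups overlapped, and its log2 fold change was -0.05 ± 0.09 (edgeR adjusted p = 0.854). CRELD2, another stress-induced lumenal protein, was at 17.9 and 12.5 CPM with shSETD8, against 14.9 and 14.3 CPM with shNull. It was high in replicate 1 and low in replicate 2. HSPA13, an Hsp70-like ATPase, was at 53.1 and 54.9 CPM with shSETD8, against 58.6 and 51.2 CPM with shNull.

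J proteins deliver unfolded chains to BiP. DNAJB11 was at 106 and 90.8 CPM with shSETD8, against 81.8 and 82.4 CPM with shNull (log2 fold change 0.26 ± 0.11, edgeR adjusted p = 0.477), and its groups did not overlap. DNAJC3, whose product also restrains PERK, was at 45.2 CPM (shSETD8 replicate 1) and 27.1 CPM (replicate 2), against 32.8 and 32.0 CPM in shNull. The shSETD8 libraries thus lay on opposite sides of shNull. DNAJC10, a disulfide reductase, and DNAJB9, which acts on IRE1 and in degradation, had log2 fold changes of 0.07 ± 0.09 and -0.10 ± 0.14.

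Of the enzymes that make and reshuffle disulfide bonds, 5 of 6 were above shNull in both libraries (83.3%, against 22.9% of all genes tested). PDIA4 was at 381 and 296 CPM with shSETD8, against 264 and 260 CPM with shNull (log2 fold change 0.37 ± 0.14, edgeR adjusted p = 0.457). P4HB, the classical protein disulfide isomerase, was at 743 and 605 CPM with shSETD8, against 560 and 519 CPM with shNull (0.32 ± 0.13, edgeR adjusted p = 0.465). PDIA3, which works with the lectins on glycoproteins, was at 560 and 480 CPM with shSETD8, against 443 and 427 CPM with shNull. In each of these genes replicate 1 was the highest library and replicate 2 the next. PDIA6 was at 237 and 229 CPM with shSETD8, against 213 and 201 CPM with shNull. SELM, a selenoprotein of the lumen, had the highest fitted log2 fold change of the members (0.57 ± 0.31), from 71 and 66 counts in shSETD8 against 42 and 36 counts in shNull. TXNDC5 had only 23 to 48 counts a library, with overlapping groups, and its gene shares sequence with a readthrough transcript from BLOC1S5, so its count is uncertain.

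**Figure D3:**
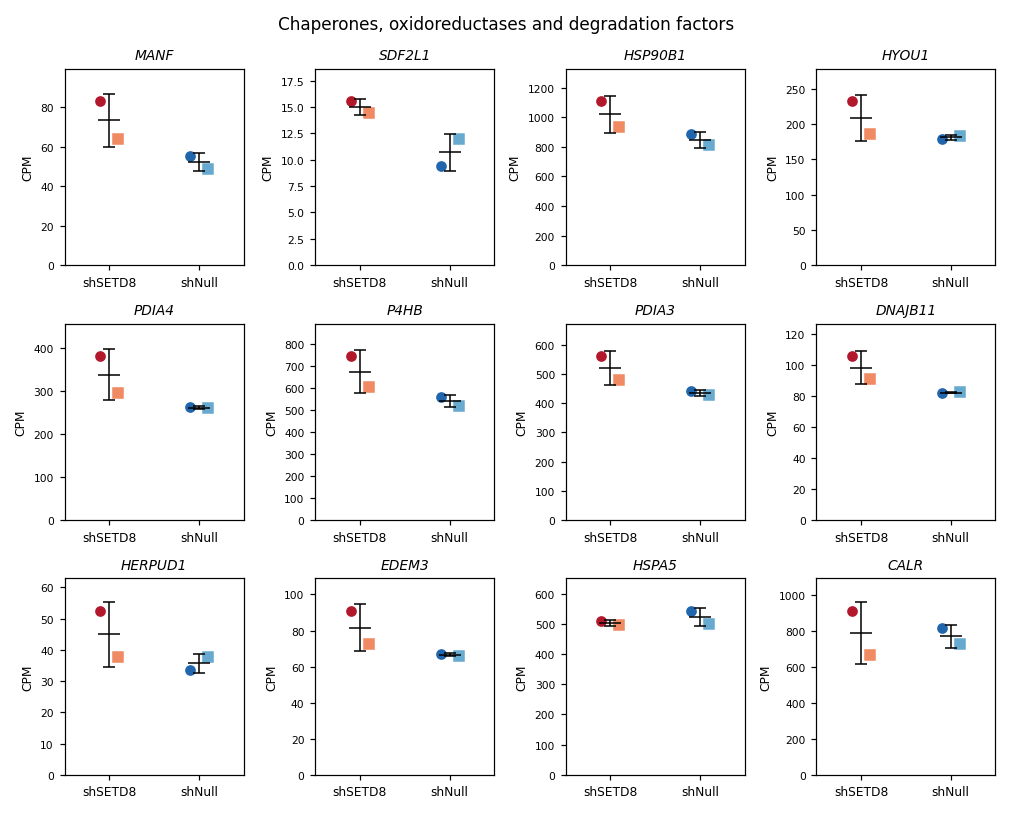
CPM of 12 members in every library, shSETD8 left and shNull right, with circles for replicate 1, squares for replicate 2 and the mean ± SD (n = 2) in black. MANF, SDF2L1, HSP90B1, PDIA4, P4HB, PDIA3, DNAJB11, EDEM3 and HYOU1 do not overlap between groups, whereas HERPUD1, HSPA5 and CALR do.

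Of the lectin cycle, which holds glycoproteins until they are folded, calnexin (CANX) was at 1011 and 1002 CPM with shSETD8, against 976 and 904 CPM with shNull (log2 fold change 0.10 ± 0.09). Its groups did not overlap, yet the gap to the upper shNull library was smaller than the distance between the shNull libraries. Calreticulin (CALR) was at 910 CPM (shSETD8 replicate 1) and 666 CPM (replicate 2), against 814 and 725 CPM in shNull. UGGT1, which re-glucosylates unfolded glycoproteins, was at 309 and 250 CPM with shSETD8, against 227 and 251 CPM with shNull. Both CALR and UGGT1 overlapped between groups. The prolyl isomerases FKBP2 and FKBP14 were above shNull in both libraries, at 37.4 and 33.9 CPM with shSETD8 against 31.6 and 28.4 CPM with shNull for FKBP2. FKBP14, known for its part in collagen folding, was at 11.2 and 10.6 CPM with shSETD8, against 10.4 and 9.04 CPM with shNull. For FKBP2 and FKBP14 the gap from replicate 2 to the upper shNull library was smaller than the distance between the shNull libraries.

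ER-associated degradation draws misfolded proteins out of the ER for the proteasome. EDEM3, which trims mannose from misfolded glycoproteins, was at 90.8 and 72.5 CPM with shSETD8, against 67.2 and 66.0 CPM with shNull (log2 fold change 0.29 ± 0.14, edgeR adjusted p = 0.493). SYVN1, the ubiquitin ligase HRD1, was at 41.9 and 32.5 CPM with shSETD8, against 32.0 and 31.9 CPM with shNull. DERL2, a derlin of the export machinery, was at 15.5 and 12.7 CPM with shSETD8, against 12.2 and 12.3 CPM with shNull. For SYVN1 and DERL2 the groups did not overlap, but replicate 2 was close to shNull. EDEM2 was at 23.5 and 28.3 CPM with shSETD8, against 23.2 and 21.3 CPM with shNull, and in it replicate 2 was the higher library. In replicate 1 the gap of EDEM2 to the upper shNull library was smaller than the distance between the shNull libraries. HERPUD1, a scaffold of the ligase complex and a sensitive stress target, was at 52.4 CPM (shSETD8 replicate 1) and 37.6 CPM (replicate 2), against 33.5 and 37.8 CPM in shNull.

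DERL3 was the member that differed most between the shSETD8 libraries, at 4.23 CPM (replicate 1) and 1.23 CPM (replicate 2), against 3.58 and 3.34 CPM in shNull. These are 222 and 60 counts in shSETD8, against 158 and 139 counts in shNull. Its log2 fold change was -0.34 ± 0.58. With shSETD8 replicate 1 left out it fell to -1.50 (adjusted p = 0.0131 in edgeR), and DERL3 was then the only member called. DERL3 overlaps SMARCB1 in RefSeq, and the sources used here do not say whether counting used strand, so its count is uncertain. The same holds, for the part that overlaps a neighbour with its own row, for PDIA3, PDIA6, SYVN1, DERL2, DNAJC10, SEC61A1 and TXNDC5. SEL1L, EDEM1 and DERL1 overlapped between groups, with log2 fold changes of 0.12, 0.06 and -0.03. So did the 5 genes of translocation, export and the ER membrane. SEC61A1, the pore of the translocon, was at 348 and 254 CPM with shSETD8, against 279 and 287 CPM with shNull. The others, SEC61B, SSR1, SEC24D and WFS1, had log2 fold changes from -0.06 to 0.10.

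None of the 7 stress sensors and transducers was above shNull in both libraries, where 22.9% of all genes tested were, and 2 were below in both (28.6%, against 22.4%). A log2 fold change above 0 was found in 1 of them, ATF6 (14.3%, against 51.2% of all genes). With 7 genes these counts are coarse, and no difference between the sensors and the other members was tested. In shSETD8 replicate 1, ATF6 and XBP1 lay above both shNull libraries, as most members did. ERN1, which encodes the sensor and nuclease IRE1, was at 11.5 CPM (shSETD8 replicate 1) and 21.3 CPM (replicate 2), against 21.4 and 16.9 CPM in shNull. EIF2AK3, which encodes the sensor kinase PERK, was at 16.2 CPM (shSETD8 replicate 1) and 33.9 CPM (replicate 2), against 27.8 and 24.8 CPM in shNull. Both were lowest in the library in which most chaperones were highest, and their fold changes over both libraries were -0.23 ± 0.32 and -0.07 ± 0.35 on the log2 scale. ATF6, the sensor released by cleavage in the Golgi, was at 114 and 104 CPM with shSETD8, against 104 and 105 CPM with shNull. Its relative ATF6B was at 95.3 and 96.7 CPM with shSETD8, against 107 and 99.8 CPM with shNull, with no overlap (log2 fold change -0.10 ± 0.09, edgeR adjusted p = 0.687). The gap of ATF6B between the groups was smaller than the distance between the shNull libraries.

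XBP1, the transcription factor made active by IRE1 splicing, was at 66.5 and 52.2 CPM with shSETD8, against 66.2 and 59.8 CPM with shNull. Counts per gene do not separate its spliced from its unspliced form, nor the cleaved from the whole ATF6 protein. PPP1R15B, a subunit of the phosphatase that restores translation after PERK, was at 192 and 196 CPM with shSETD8, against 209 and 218 CPM with shNull, with no overlap (-0.14 ± 0.09, edgeR adjusted p = 0.573). Its stress-induced relative PPP1R15A was at 16.6 and 13.3 CPM with shSETD8, against 17.6 and 14.1 CPM with shNull.

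**Figure D4:**
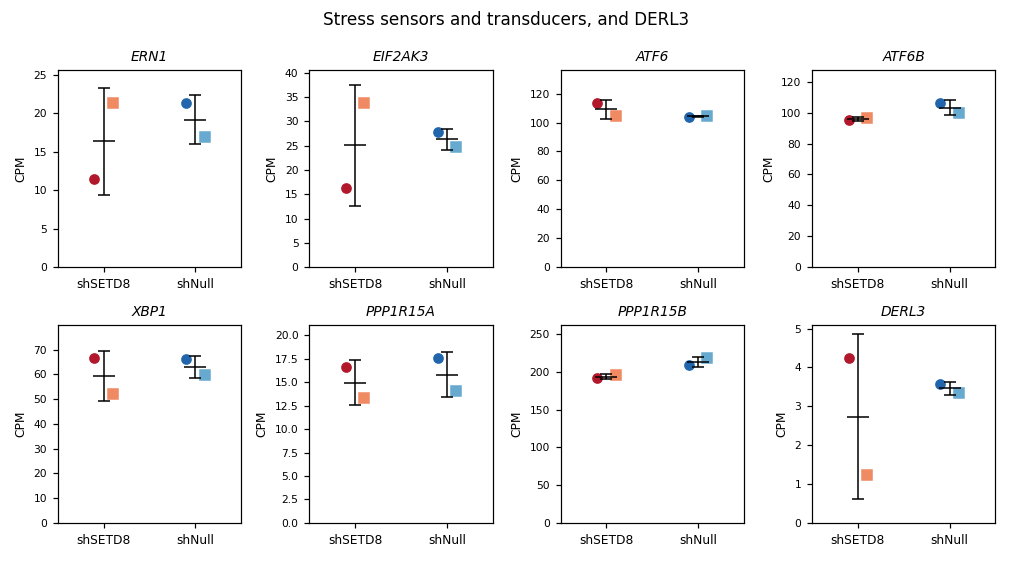
CPM of the 7 sensors and transducers and of DERL3 in every library, shSETD8 left and shNull right, with circles for replicate 1, squares for replicate 2 and the mean ± SD (n = 2) in black. ERN1 and EIF2AK3 are low in shSETD8 replicate 1 and not in replicate 2, DERL3 shows the opposite, and ATF6B and PPP1R15B lie below shNull in both.

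The split between the shSETD8 libraries ran through most of the list. Replicate 1 was above replicate 2 in 34 of 43 members (79.1%, against 50.7% of all genes tested), and in shNull replicate 1 was above replicate 2 in 29 (67.4%, against 49.9%). Summed over the members the level was 8113 and 6989 CPM with shSETD8, against 7030 and 6656 CPM with shNull. SETD8 mRNA was lower in replicate 1 than in replicate 2, and whether this goes with the members' levels was not tested. With 2 libraries, a difference in SETD8 level cannot be told apart from one between clones or hairpins. With replicate 2 left out, edgeR called 11 members higher (25.6%, against 8.12% of 14848 genes) and 2 lower (4.65%, against 9.06%). The 11 were MANF, PDIA4, HERPUD1, EDEM3, DNAJC3, P4HB, DNAJB11, SYVN1, HYOU1, UGGT1 and PDIA3, with log2 fold changes from 0.36 to 0.67, and the 2 were ERN1 (-0.74) and EIF2AK3 (-0.70). With replicate 1 left out it called 0 members higher (background 5.22%) and 1 lower (2.33%, against 4.32%). In these fits 1 library stands for its group and is taken to vary as the shNull libraries do.

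**Figure D5:**
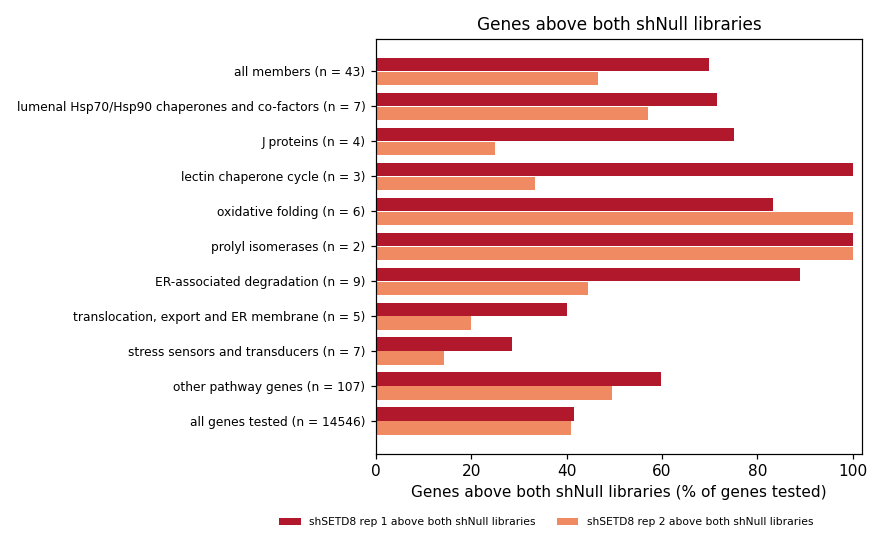
Percentage of genes above both shNull libraries in shSETD8 replicate 1 (red) and replicate 2 (orange), for the 43 members, each role, the other pathway genes and all genes tested. Replicate 1 reaches 69.8% of members against 41.6% of all genes, replicate 2 reaches 46.5% against 40.9%, and the sensors are the lowest role.

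The values of members with an ERSE lay within the range of the others. The log2 fold changes of the 7 ERSE genes had a median of 0.05, from -0.09 for XBP1 to 0.26 for HSP90B1, and 3 of them lay above shNull in both libraries (22.9% of all genes did). The 3 ERSE-II genes had fold changes of 0.21 (HYOU1), 0.34 (HERPUD1) and 0.49 (SDF2L1) on the same scale. The 27 members with a promoter and no exact match to either element in the window had a median of 0.10. No difference between these sets was tested.

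Per kilobase of transcript the members covered a wide range. The highest values were those of HSP90B1 (828 and 698 CPM per kb in shSETD8, 664 and 607 in shNull), CALR (478 and 350, 428 and 381) and P4HB (495 and 403, 373 and 346). Their order depends on the median transcript lengths used, 1338 bases for HSP90B1, 1903 for CALR and 1502 for P4HB, against 4207 for CANX. A median lowered by short transcripts raises the value per kilobase, so these ranks are not a firm order of abundance. CALR and P4HB overlapped in level. CANX followed at 240 and 238 CPM per kb in shSETD8, against 232 and 215 in shNull, and then HSPA5 at 130 and 127 in shSETD8, against 139 and 128 in shNull. The sensors and transducers took ranks 18 to 39 of the 43, the highest being PPP1R15B at 36.7 and 37.6 CPM per kb in shSETD8, against 39.9 and 41.7 in shNull. The lowest of them was ERN1 at 2.31 and 4.28 CPM per kb in shSETD8, against 4.31 and 3.40 in shNull. TXNDC5 was the lowest, at 0.286 and 0.461 CPM per kb in shSETD8, against 0.244 and 0.440 in shNull.

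Other genes of the same pathway, 112 in a list of folding enzymes, degradation factors, translocon and oligosaccharyltransferase subunits, COPII coat, the PERK-ATF4 branch and sensor processing, were read in the same fit. Of 107 tested, 40 were above shNull in both libraries (37.4%, against 22.9% of all genes) and 18 below (16.8%, against 22.4%), and the median was 0.09 as log2 fold change. edgeR called 0 of them, and at the unadjusted level above it gave 8 higher and 2 lower (5.65% and 5.16% of all genes). DESeq2 called 1 of the 107 higher, a share near the 0.928% of all genes it called higher. The gene was DNAJC1, an ER membrane J protein, at 36.9 and 49.5 CPM with shSETD8 against 23.8 and 28.4 CPM with shNull (log2 fold change 0.73 ± 0.18, DESeq2 adjusted p = 0.0379, edgeR adjusted p = 0.386).

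The other 7 genes were higher at the unadjusted level only, and neither edgeR nor DESeq2 called them after adjustment. They were DDOST (log2 fold change 0.34), the prolyl isomerase FKBP9 (0.41) and VCP, the ATPase that extracts degradation substrates (0.41). The rest were the lumenal protein ERP29 (0.31), TXNDC11 (0.31), the glycanase NGLY1 (0.31) and SDF2 (0.28). VCP was at 671 and 532 CPM with shSETD8, against 438 and 465 CPM with shNull. DDOST, a subunit of oligosaccharyltransferase, was at 284 and 269 CPM with shSETD8, against 228 and 209 CPM with shNull. Lower at the unadjusted level, and also not called, were FKBP11 and SEC16B. FKBP11 was at 4.90 and 4.42 CPM with shSETD8 against 10.3 and 7.00 CPM with shNull, and SEC16B was under 1 CPM in every library.

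In the PERK-ATF4 branch 11 of 12 genes were tested, and their median was 0.19 on the log2 scale, with 5 above shNull in both libraries (45.5%, against 22.9% of all genes) and 2 below (18.2%, against 22.4%). ATF4, its transcription factor, was at 425 and 372 CPM with shSETD8, against 450 and 440 CPM with shNull, below in both (-0.16 ± 0.10, edgeR adjusted p = 0.589). DDIT3, which encodes the factor CHOP that it induces, was at 6.60 and 6.10 CPM with shSETD8, against 5.91 and 5.24 CPM with shNull (0.19 ± 0.20, edgeR adjusted p = 0.755). In RNA from whole cultures, a gene lower in every cell and fewer cells that express it cannot be told apart.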

How the data were processed

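The authors' deposited table gave raw counts per gene as whole numbers, with 1 column per library. Trimmomatic 0.36, FastQC 0.10.1, STAR 2.4.0.1, DESeq 1.32.0 and build hg19 are named, without roles, per the submitters' processing notes. Neither the counting program nor its strand setting is stated in the sources used here. Another 2 count columns matched no sample and were left aside. Rows without a symbol (43, from 0.241% to 0.276% of counts) were kept under their Entrez identifier.

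Groups came from the treatment label, with 2 libraries each. Replicate numbers follow record order. Chi-square per gene was 71.8 between the shSETD8 libraries and 16.4 between the shNull libraries, so each pair differed by more than sampling noise. P-values measure the spread between these libraries. Tests used edgeR 4.0.16 under R 4.3.3, by quasi-likelihood with TMM and filterByExpr, which removed 2293 genes. Adjustment was by Benjamini-Hochberg over all genes, at 0.05. SE is derived from F, as the fold change (log2) divided by its square root. Differences of 1 library from the shNull mean are in log2 CPM (prior count 2). Alternatives were DESeq2 1.42.0, limma-voom (limma 3.58.1), DESeq2 size factors, no filter and each library left out. The edgeR, DESeq2 and limma-voom fits were tested on simulated counts, and the other steps were not.

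Members, lists and tests were chosen with earlier results of these data known. Values in every library are given for members whose groups do not overlap or with an unadjusted p under 0.05, for HSPA5 and for the sensors. Other pathway genes are named at that p or where DESeq2 called them, with ATF4 and DDIT3. HSPA13, CRELD2, DNAJC3, CALR, UGGT1, HERPUD1, DERL3 and SEC61A1 were added after their values were seen. Transcript lengths are medians over GENCODE v29 basic coding transcripts (GRCh38). Promoters and overlapping genes are from RefSeq on GRCh38.p14, matched by Entrez identifier.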

Additional observations from a re-analysis of the deposited data

How the results depend on the processing

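No paired analysis was possible because the labels give the libraries no shared replicate numbers. The number of genes called by edgeR was 0 and stayed 0 with DESeq2 size factors, without the low-count filter, with limma-voom and without either shNull library (unadjusted p under 0.05: 822 higher and 751 lower). DESeq2 called 283 genes. With 1 library left out the calls over all genes ran from 0 to 2550, the calls among members from 0 to 13, the members higher without overlap from 20 to 30, the members above 0 from 25 to 34 and their median log2 fold change from 0.050 to 0.23. The upper ends come from leaving out shSETD8 replicate 2; without shSETD8 replicate 1 there were 1418 calls, 1 of them a member. Groups with fewer libraries separate more readily, so the members without overlap cannot be set against the 17 found with all libraries. Over all genes tested, shSETD8 replicate 1 alone was above both shNull libraries in 41.6% and replicate 2 alone in 40.9%. Both were above in 22.9%. The SETD8 log2 fold change was -0.998 in DESeq2 (adjusted p = 0.0459) and ran from -1.53 to -0.61 with 1 library left out.

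With 1 library left out the direction of the log2 fold change turned for 20 of the 43 members: HSPA5 (from -0.11 to 0.0065), HSPA13 (from -0.12 to 0.076), CRELD2 (from -0.24 to 0.29), DNAJC3 (from -0.26 to 0.48), CALR (from -0.21 to 0.24), TXNDC5 (from -0.25 to 0.61), SEL1L (from -0.066 to 0.28), EDEM1 (from -0.042 to 0.17), DERL1 (from -0.13 to 0.068), DERL3 (from -1.50 to 0.29), SEC61A1 (from -0.16 to 0.30), SEC61B (from -0.15 to 0.23), SSR1 (from -0.18 to 0.048), SEC24D (from -0.22 to 0.19), WFS1 (from -0.36 to 0.44), ERN1 (from -0.74 to 0.15), XBP1 (from -0.28 to 0.077), ATF6 (from -0.0042 to 0.12), EIF2AK3 (from -0.70 to 0.36) and PPP1R15A (from -0.26 to 0.086). The other 23 kept their direction, and under the settings that keep all 4 libraries none of the 43 changed direction or became a call. The number of members higher without overlap did change in 1 of these settings, from 17 to 20 without the low-count filter. It thus depends on how the libraries are scaled. Depth limits TXNDC5 and SELM, the members with the fewest counts. DERL3 had the next fewest, and its shSETD8 libraries also differed widely, with 222 and 60 counts against 158 and 139 counts in shNull.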
